A study of Mus musculus with 12 samples.

Results

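The 38 genes described here encode the machinery with which the endoplasmic reticulum (ER) imports, folds, cross-links and disposes of secretory proteins. The rule that picks them is a list of gene symbols, drawn up with earlier results of these data known, and all 38 were found among the 55487 genes of the count table. By role they comprise 13 folding genes, 8 disulfide genes, 4 translocation genes, 12 degradation genes and Wfs1, an ER membrane protein placed in none of these classes. Their mRNA was counted by RNA-seq in mesenchymal stromal cells (MSCs) grown from the bone marrow of wild-type C57BL/6 mice, in 3 groups of 4 samples. Control MSCs were left untreated, A1-treated MSCs received 50 µM A1 for 6 h, and A1 + OVA-treated MSCs received 50 µM A1 together with 1 mg/mL ovalbumin (OVA), a model antigen, for 6 h. A1 consists of cholic acid, a bile acid, joined to the nuclear localization signal of hnRNPA1. All groups were kept in medium with 10% fetal bovine serum, and the protocol of the A1 + OVA medium also names insulin, without a dose, which that of the A1 medium does not. No group with OVA alone is analysed here, so that OVA was compared in the presence of A1 only. In that comparison, OVA and any insulin in its medium cannot be told apart.

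The cells limit what these samples can stand for. Per the study's methods, MSCs came from the femurs of female mice aged 6 to 8 weeks and were expanded by passage in culture. The sources used here do not say whether the 4 samples of a group were separate cultures or donors, so p-values measure the spread between these samples, which may be technical. In bulk RNA, fewer cells of a type and less RNA per cell cannot be told apart. The counts assigned to genes summed to 15644991 to 16881995 in a control sample, 13702348 to 14347870 in an A1-treated sample and 14359973 to 16674294 in an A1 + OVA-treated sample. Levels are therefore given as CPM, each gene's share of the counts scaled to 1000000, on library sizes normalized by the TMM method. The summed level of 12 MSC markers was 9567.7 to 9989.9 CPM in control samples, 7914.4 to 8270.5 CPM with A1 and 8056.4 to 8301.1 CPM with A1 + OVA, and its part in the results was not tested. Among the markers, the largest difference in CPM was that of Cxcl12, a chemokine of the marrow niche, which stood at 3909.8 ± 130.0 CPM in control, 1514.4 ± 63.6 CPM with A1 and 1692.2 ± 57.1 CPM with A1 + OVA (SD, n = 4). Cxcl12 was then left out because of this difference. The sum of the other 11 markers was higher in the treated samples, at 5538.8 to 6136.2 CPM in control, 6346.7 to 6793.2 CPM with A1 and 6374.5 to 6528.9 CPM with A1 + OVA. These markers differed in both directions. Itgb1 was at 1450.9 ± 71.5 CPM in control and 2224.9 ± 91.5 CPM with A1, and Cd44 at 175 ± 6.50 and 458 ± 14.2 CPM (SD, n = 4). Lower with A1 were Pdgfra, at 247 ± 9.64 and 125 ± 6.13 CPM, Vcam1, at 226 ± 7.29 and 117 ± 3.23 CPM, and Ly6a, at 35.1 ± 2.14 and 23.3 ± 1.84 CPM (SD, n = 4). Among these markers, Thy1 (0.267 ± 0.493 CPM), Nt5e (0.539 ± 0.116 CPM) and Lepr (0.596 ± 0.162 CPM) were near 0 in control MSCs (SD, n = 4). The summed level of 9 macrophage and other hematopoietic markers was 1.68 to 3.02 CPM and that of 5 endothelial markers 0.218 to 0.916 CPM over the 12 samples, with Cd3e at 0 in each.

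Secretory proteins enter the ER through the Sec61 channel and are folded there by the Hsp70-type chaperone BiP, by its J-protein and nucleotide-exchange partners and by the lectin chaperones calnexin and calreticulin. Protein disulfide isomerases form and shuffle their disulfide bonds. Proteins that fail to fold are recognized by lectins, moved back through the membrane, ubiquitinated and drawn out to the proteasome, a route called ER-associated degradation (ERAD). When unfolded proteins build up, the sensors ATF6, IRE1 and PERK start the unfolded protein response (UPR), which raises transcription of many of these genes. ATF6 acts with NF-Y through the ER stress element (ERSE) of promoters, and XBP1, the transcription factor made active by IRE1, can act through the UPR element (UPRE).

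These elements were looked for in the promoters of the members. The sequences were not used to choose the members, but the list names many known genes of this response. A high share of these elements among them therefore describes the list and is not an independent result. RefSeq windows of 300 bases (GRCm38.p6), from 250 bases before to 50 bases after an annotated transcription start, were found for 32 of the 38 members. Hyou1, Manf, Sil1, Sec61a1, Derl1 and Erlec1 had none. Both strands were searched for the ERSE (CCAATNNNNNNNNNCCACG), the ERSE-II (ATTGGNCCACG) and the UPRE core (TGACGTGG), and a gene with several windows was counted once. The ERSE and ERSE-II matches in members that were tested are printed below from 5′ to 3′ on the strand that reads as the motif, with the motif in capitals and 5 bases on each side, because they are the sequences these genes share beyond their function.
Hspa5 ERSE: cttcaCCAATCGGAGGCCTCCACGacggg
Hsp90b1 ERSE, upstream copy: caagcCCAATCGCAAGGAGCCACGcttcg
Hsp90b1 ERSE, downstream copy: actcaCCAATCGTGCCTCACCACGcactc
Calr ERSE: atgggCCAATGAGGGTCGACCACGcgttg
Canx ERSE: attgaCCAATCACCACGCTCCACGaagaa
Dnajc3 ERSE: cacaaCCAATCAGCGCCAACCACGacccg
Creld2 ERSE: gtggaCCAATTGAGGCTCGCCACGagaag
Pdia6 ERSE: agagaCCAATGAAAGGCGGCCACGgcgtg
Syvn1 ERSE: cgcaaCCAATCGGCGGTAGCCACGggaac
Dnajb11 ERSE-II: cggcgATTGGCCCACGcctgg
Herpud1 ERSE-II: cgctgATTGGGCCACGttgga
In GRCm38 the capitals lie at chr2:34772025-34772043 for Hspa5, chr10:86705638-86705656 and chr10:86705533-86705551 for Hsp90b1, chr8:84847075-84847093 for Calr, chr11:50325800-50325818 for Canx and chr14:118937827-118937845 for Dnajc3. Those of Creld2 lie at chr15:88819520-88819538, of Pdia6 at chr12:17266491-17266509, of Syvn1 at chr19:6046532-6046550, of Dnajb11 at chr16:22857852-22857862 and of Herpud1 at chr8:94386377-94386387. Hsp90b1, Calr and Canx are transcribed from the minus strand and the other 7 genes from the plus strand. The downstream Hsp90b1 copy and those of Calr and Creld2 read on the strand opposite to the gene. Each lies upstream of the RefSeq start of its window, except the ERSE-II of Dnajb11, which begins 7 bases after it. The ERSE of Hspa5 lies inside the gene as annotated by GENCODE, which starts further upstream, at chr2:34771970.

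The ERSE was present in 9 of the 32 members (28.1%), against 14 of the 8946 tested protein-coding genes with a window (0.156%), a set that includes 8 of these members. Of the 10 folding members with a window 6 carried it, as did 1 of 8 disulfide, 0 of 3 translocation and 2 of 10 degradation members. The ERSE member that is not printed, Derl3, was not detectable in these cells. ERSE-II was found in 2 members (6.25%, against 0.0894%) and the UPRE core in 3, Txndc5, Txndc11 and Vcp (9.38%, against 1.03%). In all, 14 members held at least 1 of these motifs (43.8%, against 1.26% of the tested genes), and no member held more than 1 kind. Among 76 other ER proteostasis genes with a window, 1 held any of them. A match is a run of letters in a window, not a measured binding site.

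**Figure D1:**
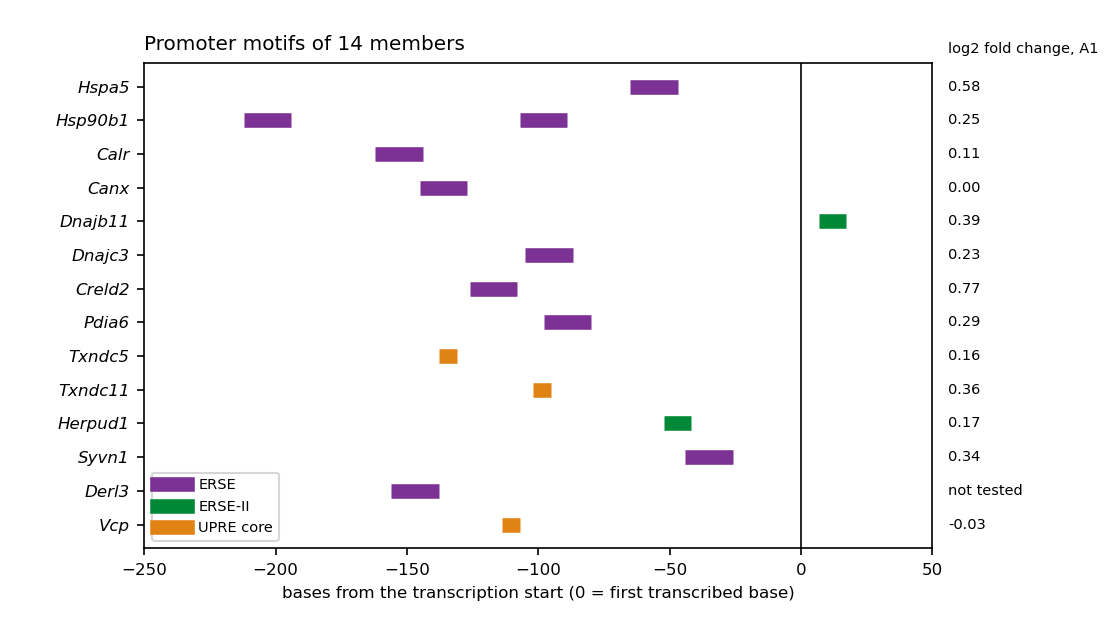
Position of ERSE, ERSE-II and UPRE core matches in the promoter windows of 14 members. The x axis gives bases from the annotated transcription start, bars span the matched letters, and the values at the right are log2 fold changes with A1. Most matches lie upstream of the start, and Canx, with 0.00, carries the same motif as Creld2, with 0.77.

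The groups were compared by the quasi-likelihood test of edgeR, fitted over 11314 protein-coding genes that passed the filter on low counts, with Benjamini-Hochberg adjustment over all of them. A gene was called higher or lower at an adjusted p-value under 0.05. Of the 38 members, 37 passed the filter. Derl3, a derlin, had 0 counts in every control and A1-treated sample and at most 1 count in an A1 + OVA-treated sample, under the 3 counts taken as the smallest signal, so that it was not detectable at this depth.

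With A1, 25 of the 37 tested members rose, 3 fell and 9 did not pass the test. Of all tested genes, 31.7% were called higher and 31.1% lower, against 67.6% and 8.11% of the members. The increases were mostly small. A log2 fold change of at least 0.5 was passed by 7 members (background 9.41%), namely Manf, Creld2, Hyou1, Hspa5, Sdf2l1, Serp1 and Sec61a1, and 0 fell by as much (background 11.6%), the lowest value being -0.18. The median log2 fold change of the members was 0.20, beside -0.00 over all tested genes. In 25 members the 4 A1-treated samples did not overlap with the 4 control samples in CPM, and 54.4% of all tested genes were separated in this way. With A1 + OVA, 23 members rose, 1 fell and 13 did not pass (background 29.7% higher and 27.9% lower), and the members' median was 0.15 on the log2 scale, beside 0.00. Of the 37, 6 rose by at least 0.5 (background 8.92%), 0 fell by as much (background 8.79%, lowest value -0.16), and 19 did not overlap with control (background 49.4%). These comparisons share the control samples. The 23 members that rose with A1 + OVA also rose with A1, and Dnajc3 and Txndc5 passed with A1 only.

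The classes gave different counts, for which no test over classes was run, and which stand beside 31.7% of all tested genes called higher and 31.1% lower with A1. With A1, 11 of 13 folding members rose (median log2 fold change 0.39). Of the disulfide members, 7 of 8 rose, with a median of 0.18, and all 4 translocation members rose, with a median of 0.52. Among the 11 tested degradation members 2 rose (18.2%), 3 fell (27.3%) and 6 did not pass, and the median was -0.04, so that the share of lower calls was near that of all tested genes. With A1 + OVA the counts of higher calls were 10 of 13, 6 of 8, 4 of 4 and 2 of 11 in the same order, with medians of 0.26, 0.16, 0.36 and 0.01, and 1 degradation member fell (background 29.7% higher and 27.9% lower). In the folding, disulfide and translocation classes edgeR called 0 members lower with either treatment, as did DESeq2, and 0 were lower at an unadjusted p under 0.05.

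**Figure D2:**
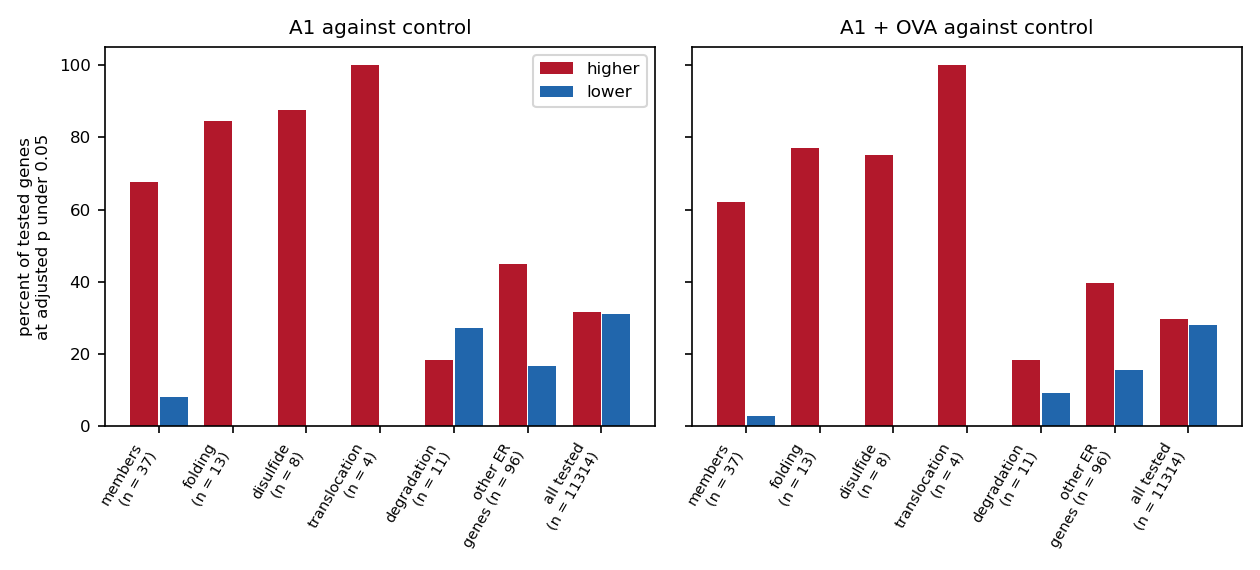
Percent of tested genes called higher (red) or lower (blue) at an adjusted p under 0.05 with A1 (left) and A1 + OVA (right), for the members, their classes, 96 other ER proteostasis genes and all 11314 tested genes. Higher calls took 84.6% of folding and 18.2% of degradation members with A1.

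**Figure D3:**
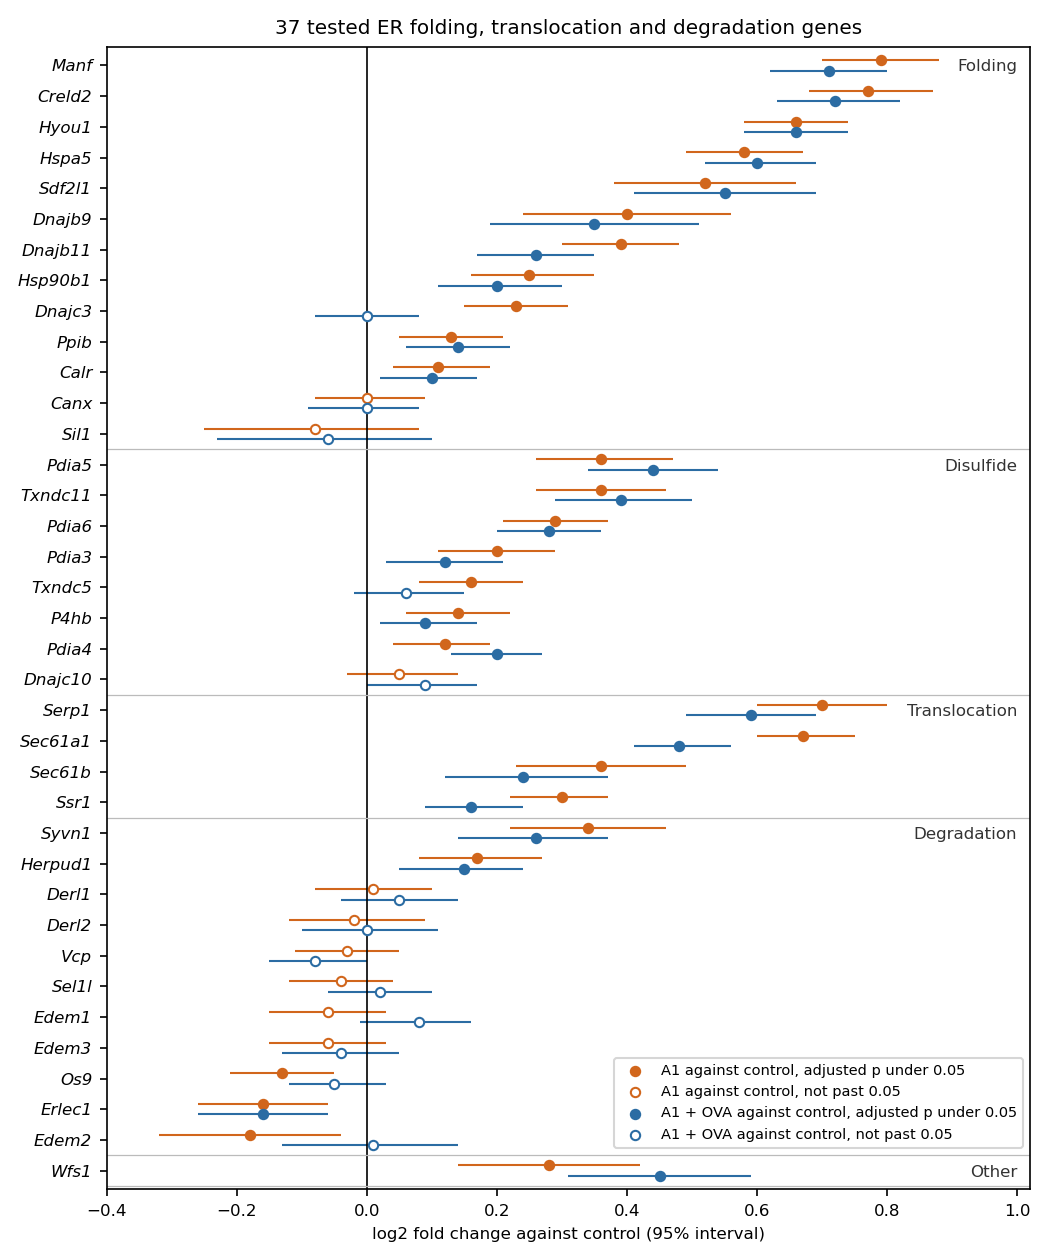
Log2 fold change of the 37 tested members against control with 95% intervals, by class, for A1 (orange) and A1 + OVA (blue). Filled points passed an adjusted p of 0.05, and the degradation members lie between -0.18 and 0.34 with A1.

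Relative to the TMM-normalized library size of the tested genes, the 38 members together stood at 1.50% in control, 1.79% with A1 and 1.75% with A1 + OVA. Because of the scaling, these values are not shares of all counts. Their summed level was 14667.6 to 15590.4 CPM in the control samples, 17457.0 to 18394.3 CPM with A1 and 16652.4 to 17930.5 CPM with A1 + OVA, without overlap between control and either treatment. Folding members made up 62.7% of the difference between the mean sums of A1 and control, disulfide members 21.3% and translocation members 16.8%. The summed level of the degradation members was 1307.8 ± 20.6 CPM in control, 1279.5 ± 11.2 CPM with A1 and 1300.7 ± 10.5 CPM with A1 + OVA (SD, n = 4). Hspa5 alone accounted for 28.1% of the difference and Hsp90b1 for 15.7%.

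Per kilobase of exon, the level of Calr was the highest among the members in control MSCs, at 605 CPM per kb, followed by Hsp90b1 (584), Pdia3 (535), P4hb (429.7) and Hspa5 (387). With A1 the order was Hsp90b1 (696 CPM per kb), Calr (654), Pdia3 (616), Hspa5 (579) and P4hb (474), so that Hspa5 moved ahead of P4hb. With A1 + OVA, Hspa5 (588) stood above Pdia3 (579.8) as well, but the samples of these neighbours overlapped. In control the samples of Calr and Hsp90b1 overlapped, as did those of Hsp90b1 and Pdia3, whereas Pdia3, P4hb and Hspa5 were separated from each other. With A1, Hspa5 was separated from Pdia3 above it (604 to 646 CPM per kb) and from P4hb below it (459 to 485 CPM per kb), at 540 to 598 CPM per kb. At the low end, Txndc11 (5.18 CPM per kb), Wfs1 (6.45) and Sil1 (6.85) were the lowest detected members in control. The lengths are those of all annotated exons of a gene merged, so that the order depends on them. In CPM without this division, Hspa5 (1636.2) already stood above P4hb (1229.5) in control.

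Among the folding genes, BiP itself and most of its cofactors in the list rose. Hspa5 (chr2:34771970-34777547, plus strand) encodes BiP, the main ER Hsp70. It falls outside the rule for printing values by sample and was added after its values were seen, because its cofactors are read against it. Hspa5 stood at 1587, 1728, 1634.5 and 1595.5 CPM in control samples 1 to 4, at 2282, 2478, 2527 and 2504 CPM in A1 samples 1 to 4 and at 2558, 2550.5, 2348 and 2483 CPM in A1 + OVA samples 1 to 4. The lowest treated sample lay above the highest control sample with both treatments. Its log2 fold change was 0.58 ± 0.04 with A1, a 1.50-fold level (edgeR adjusted p = 1.02e-10), and 0.60 ± 0.04 with A1 + OVA (edgeR adjusted p = 6.34e-11). Here and below, errors of log2 fold changes are standard errors from the fit.

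Hyou1 (chr9:44379490-44392369, plus strand) encodes a large Hsp70-type protein that exchanges nucleotide on BiP. It was measured at 178, 173, 190.2 and 190.1 CPM in control samples 1 to 4, at 287, 288, 279.7 and 301 CPM in A1 samples 1 to 4 and at 289.9, 295, 288 and 284 CPM in A1 + OVA samples 1 to 4. Treated and control samples were separated by more than the spread within any group. It rose by a log2 fold change of 0.66 ± 0.04 with A1 and 0.66 ± 0.04 with A1 + OVA (edgeR adjusted p = 2.57e-12 and 2.91e-12). Sil1, the other nucleotide exchange factor of BiP in the list, did not pass. Sil1 was at 26.9, 24.5, 21.3 and 21.5 CPM in control samples 1 to 4, at 23.9, 21, 23.1 and 20.8 CPM in A1 samples 1 to 4 and at 22.3, 20.2, 23.8 and 23.9 CPM in A1 + OVA samples 1 to 4. The groups overlapped throughout, and the 95% interval of the log2 fold change was -0.25 to 0.08 with A1 and -0.23 to 0.10 with A1 + OVA (edgeR adjusted p = 0.377 and 0.514).

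Manf (chr9:106838312-106891979, minus strand), a small secreted and ER-resident protein that binds BiP, had the largest log2 fold change of all members with A1. It was counted at 166, 154, 149.6 and 147 CPM in control samples 1 to 4, at 267, 272, 273 and 253 CPM in A1 samples 1 to 4 and at 261, 252, 242 and 253 CPM in A1 + OVA samples 1 to 4. Every treated sample exceeded every control sample. This was a log2 fold change of 0.79 ± 0.04 with A1 (1.73-fold, edgeR adjusted p = 5.08e-13) and 0.71 ± 0.04 with A1 + OVA (1.63-fold, edgeR adjusted p = 3.29e-12). Creld2 (chr15:88819646-88826683, plus strand) encodes an ER protein with disulfide isomerase activity that is induced by ER stress. Its level stood at 56.6, 54.3, 53.2 and 51.9 CPM in control samples 1 to 4, at 87.6, 95.2, 93.9 and 92.6 CPM in A1 samples 1 to 4 and at 94.8, 88.3, 84.8 and 88.2 CPM in A1 + OVA samples 1 to 4. Again no treated sample reached down to the controls, which spanned 51.9 to 56.6 CPM. It rose by 0.77 ± 0.05 with A1 and by 0.72 ± 0.05 with A1 + OVA on the log2 scale (edgeR adjusted p = 2.75e-12 and 9.52e-12).

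J proteins bring substrates to BiP and stimulate its ATPase, and 2 of them were called between A1 + OVA and A1. Dnajb11 (ERdj3) was at 179, 182, 183 and 174 CPM in control samples 1 to 4, at 228, 241, 239 and 234 CPM in A1 samples 1 to 4 and at 228, 225, 198 and 209 CPM in A1 + OVA samples 1 to 4. All treated samples lay above the controls, and the A1 + OVA samples lay below the A1 samples or level with the lowest of them. It rose by 0.39 ± 0.04 on the log2 scale with A1 and by 0.26 ± 0.04 with A1 + OVA (edgeR adjusted p = 6.05e-08 and 1.98e-05). Between A1 + OVA and A1 the log2 difference was -0.13 ± 0.04 (edgeR adjusted p = 0.0443), a call that was lost without A1 sample 2, 3 or 4, without A1 + OVA sample 3 or 4 and without control sample 3 or 4 (edgeR adjusted p = 0.0534 to 0.161). It was also lost with upper-quartile scaling (edgeR adjusted p = 0.0506) and in a fit of the compared groups alone (edgeR adjusted p = 0.0543).

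Dnajc3 (p58IPK), a J protein that also restrains the kinase PERK, was at 255, 278, 261 and 249.9 CPM in control samples 1 to 4, at 305, 298, 314 and 306 CPM in A1 samples 1 to 4 and at 263, 275, 250.3 and 255 CPM in A1 + OVA samples 1 to 4. Only the A1 samples stood apart, since the A1 + OVA samples lay within the range of the controls. It rose with A1 by 0.23 ± 0.04 on the log2 scale (edgeR adjusted p = 4.24e-05). With A1 + OVA the log2 fold change was -0.00 ± 0.04, with a 95% interval of -0.08 to 0.08 (edgeR adjusted p = 0.985). The difference between A1 + OVA and A1 passed the test at -0.23 ± 0.04 (edgeR adjusted p = 0.000656) and kept its call when each sample in turn was left out.

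Canx, the membrane-bound lectin chaperone calnexin, did not pass in any comparison. It was at 1036, 1158, 1082 and 1019 CPM in control samples 1 to 4, at 1048, 1058, 1131 and 1068 CPM in A1 samples 1 to 4 and at 1084, 1099.5, 1038 and 1066 CPM in A1 + OVA samples 1 to 4. The groups overlapped, with intervals of -0.08 to 0.09 for A1 and -0.09 to 0.08 for A1 + OVA around log2 fold changes of 0.00 and -0.00 (edgeR adjusted p = 0.951 and 0.963). Its soluble counterpart Calr rose by 0.11 with A1 and by 0.10 with A1 + OVA (edgeR adjusted p = 0.00778 and 0.025). The A1 + OVA call was lost without control sample 4, A1 sample 4 or A1 + OVA sample 2 or 4 (edgeR adjusted p = 0.0509 to 0.0808). It was also lost with upper-quartile scaling, with no filter on low counts, with all genes of the table and with the compared groups alone (edgeR adjusted p = 0.0525 to 0.085).

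The other folding members rose with both treatments. Sdf2l1, which works with Dnajb11 on BiP substrates, had log2 fold changes of 0.52 and 0.55 with A1 and A1 + OVA. For the J protein Dnajb9 (ERdj4) they were 0.40 and 0.35, for Hsp90b1, the ER Hsp90 GRP94, 0.25 and 0.20, and for the prolyl isomerase Ppib 0.13 and 0.14. The edgeR adjusted p-values of these members lay between 4.07e-07 and 0.00705. With A1 + OVA, samples of Hsp90b1 and Ppib overlapped with control.

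**Figure D4:**
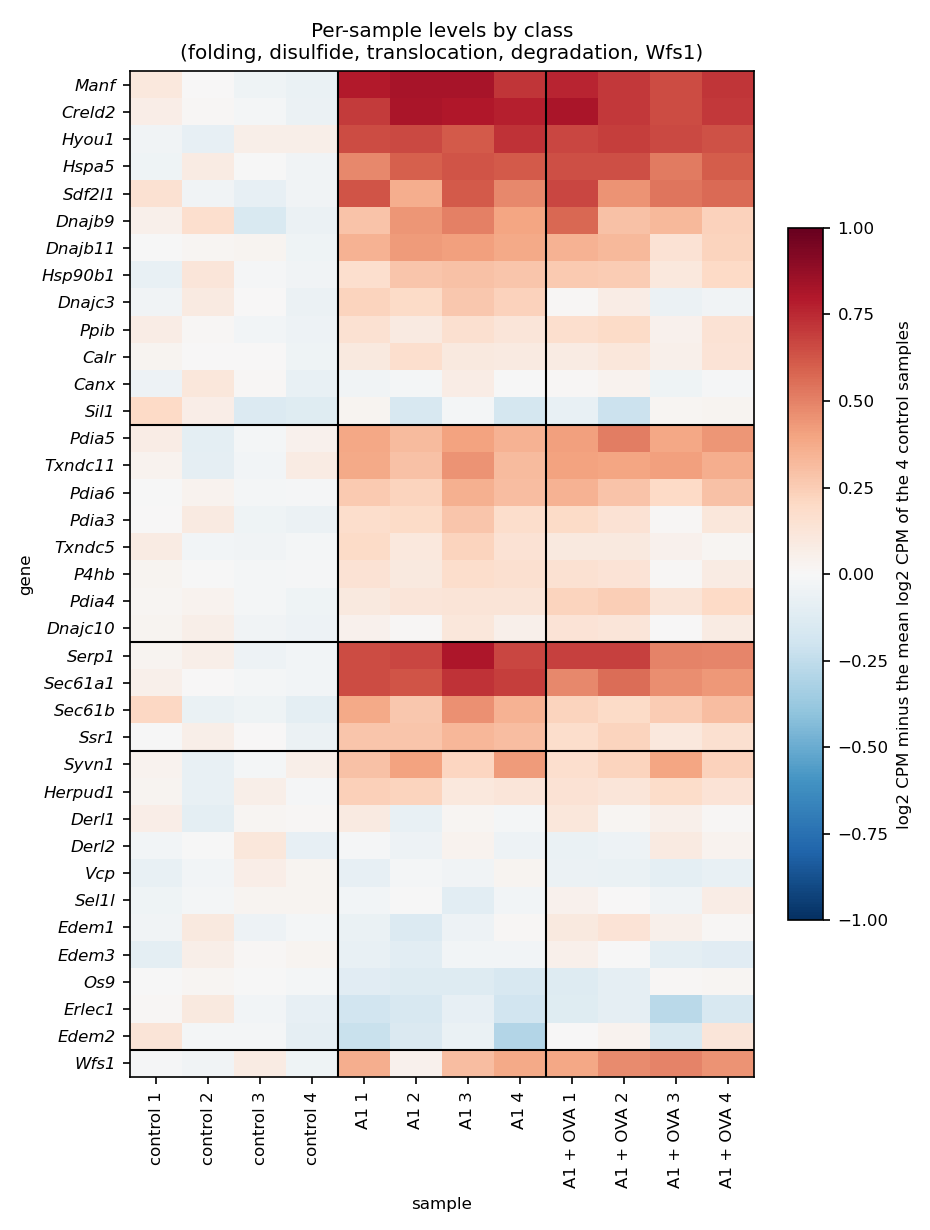
Level of each tested member in each of the 12 samples as log2 CPM minus the mean log2 CPM of the 4 control samples, ordered by class. Red marks higher and blue lower levels, and the rows from Manf to Sdf2l1 and Serp1 and Sec61a1 are red in all 8 treated samples.

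Log2 fold changes of the disulfide members reached at most 0.44. Pdia5 encodes a protein disulfide isomerase and had the largest log2 fold change of the class with either treatment. Pdia5 was at 43.9, 39, 41.2 and 43.1 CPM in control samples 1 to 4, at 54.6, 52.1, 55.2 and 53.2 CPM in A1 samples 1 to 4 and at 55.6, 59.6, 54.5 and 56.6 CPM in A1 + OVA samples 1 to 4. The controls did not exceed 43.9 CPM and no treated sample fell below 52.1 CPM. Its log2 fold change was 0.36 ± 0.05 with A1 and 0.44 ± 0.05 with A1 + OVA (edgeR adjusted p = 1.49e-06 and 9.53e-08). Txndc11, a membrane thioredoxin-domain protein that acts with the EDEM proteins in degradation, was at 46.8, 42.9, 44.9 and 48.5 CPM in control samples 1 to 4, at 59.6, 56, 62.6 and 56.9 CPM in A1 samples 1 to 4 and at 60.5, 60.2, 60.9 and 58.9 CPM in A1 + OVA samples 1 to 4. Here too the groups did not overlap with control. It rose by 0.36 ± 0.05 and 0.39 ± 0.05 on the log2 scale (edgeR adjusted p = 1.62e-06 and 4.57e-07).

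Pdia6, an isomerase that associates with BiP, was at 469, 484, 464 and 468 CPM in control samples 1 to 4, at 566, 550.4, 604 and 583 CPM in A1 samples 1 to 4 and at 601, 574, 542 and 577 CPM in A1 + OVA samples 1 to 4. Each treated sample was above each control sample. The log2 fold change was 0.29 ± 0.04 with A1 and 0.28 ± 0.04 with A1 + OVA (edgeR adjusted p = 1.44e-06 and 2.26e-06). Dnajc10 (ERdj5), a reductase that opens disulfide bonds of proteins bound for degradation, was the member of this class that passed in no comparison. Dnajc10 was at 298, 306, 286 and 283 CPM in control samples 1 to 4, at 302, 295, 317 and 304 CPM in A1 samples 1 to 4 and at 322, 319, 294 and 309.8 CPM in A1 + OVA samples 1 to 4. Its groups overlapped, and the 95% interval of the log2 fold change was -0.03 to 0.14 with A1 and 0.00 to 0.17 with A1 + OVA (edgeR adjusted p = 0.234 and 0.0656). It passed for A1 + OVA without control sample 2 or A1 + OVA sample 3 (edgeR adjusted p = 0.0297 and 0.0216).

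The abundant isomerases rose by small amounts. Pdia3 (ERp57), which works with calnexin and calreticulin, had log2 fold changes of 0.20 with A1 and 0.12 with A1 + OVA. P4hb, the classical protein disulfide isomerase, had 0.14 and 0.09, and Pdia4 (ERp72) had 0.12 and 0.20. Of these, the A1 + OVA calls of Pdia3 (edgeR adjusted p = 0.0256) and P4hb (edgeR adjusted p = 0.0358) depended on individual samples and on the processing. That of Pdia3 was lost without control sample 3 or 4 or A1 + OVA sample 1 or 2 (edgeR adjusted p = 0.0626 to 0.0891), and with upper-quartile scaling, all genes of the table or the compared groups alone (edgeR adjusted p = 0.0514 to 0.0664). That of P4hb was lost without control sample 2, 3 or 4, A1 sample 1, 3 or 4, or A1 + OVA sample 1 or 2 (edgeR adjusted p = 0.0512 to 0.112), and under each of these settings, no filter on low counts and DESeq2 size factors (edgeR adjusted p = 0.0592 to 0.102). Txndc5 (ERp46) rose with A1 by 0.16 (edgeR adjusted p = 0.000956), while with A1 + OVA its log2 fold change was 0.06 (edgeR adjusted p = 0.16) and passed only without control sample 1 (edgeR adjusted p = 0.0393). Its difference between A1 + OVA and A1 was -0.10 and did not pass (edgeR adjusted p = 0.0983).

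All 4 translocation members rose with both treatments. Sec61a1 (chr6:88503579-88518905, minus strand) encodes the pore-forming subunit of the channel. Sec61a1 was at 329, 318, 313 and 312 CPM in control samples 1 to 4, at 499, 492, 526 and 513 CPM in A1 samples 1 to 4 and at 443, 467, 439.5 and 429 CPM in A1 + OVA samples 1 to 4. The 3 groups were fully separated, with control lowest, A1 + OVA between and A1 highest. Against control it was a log2 fold change of 0.67 ± 0.04 with A1 (1.60-fold, edgeR adjusted p = 1.07e-12) and 0.48 ± 0.04 with A1 + OVA (edgeR adjusted p = 3.18e-10). The difference of -0.19 ± 0.04 between A1 + OVA and A1 also passed (edgeR adjusted p = 0.00159).

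Serp1 (chr3:58519817-58525892, minus strand), also called RAMP4, is a small protein bound to the channel that is induced by ER stress. Serp1 was at 293, 299, 278 and 282 CPM in control samples 1 to 4, at 453, 457, 503 and 457 CPM in A1 samples 1 to 4 and at 463, 462, 407 and 404 CPM in A1 + OVA samples 1 to 4. Treated samples lay above the controls, and A1 + OVA samples 3 and 4 lay below the other treated samples. It rose by 0.70 ± 0.05 with A1 and by 0.59 ± 0.05 with A1 + OVA on the log2 scale (edgeR adjusted p = 5.78e-11 and 9.68e-10), and the difference between the treatments did not pass (-0.11, 95% interval -0.21 to -0.01, edgeR adjusted p = 0.16). Sec61b, a small tail-anchored channel subunit, was at 48.3, 40.1, 40.7 and 39.3 CPM in control samples 1 to 4, at 54.5, 50.6, 57.5 and 53.5 CPM in A1 samples 1 to 4 and at 48.9, 47.8, 50.1 and 52.1 CPM in A1 + OVA samples 1 to 4. The A1 samples exceeded all controls, while A1 + OVA samples overlapped with control sample 1, which stood above the other controls. Its log2 fold change was 0.36 ± 0.06 with A1 and 0.24 ± 0.06 with A1 + OVA (edgeR adjusted p = 2.61e-05 and 0.00174).

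Ssr1, the alpha subunit of the translocon-associated protein complex, was at 448, 469.7, 451 and 432 CPM in control samples 1 to 4, at 545, 544, 566 and 558 CPM in A1 samples 1 to 4 and at 508, 524, 483 and 504 CPM in A1 + OVA samples 1 to 4. The order was the same as for Sec61a1, without overlap between any of the groups. The log2 fold change was 0.30 ± 0.04 with A1 and 0.16 ± 0.04 with A1 + OVA (edgeR adjusted p = 4.68e-07 and 0.000666). Between A1 + OVA and A1 it was -0.13 ± 0.04 (edgeR adjusted p = 0.0207), a call lost without A1 sample 3 or A1 + OVA sample 3 or 4 (edgeR adjusted p = 0.0501 to 0.0762).

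Among the degradation members, Syvn1 and Herpud1 rose with both treatments. Syvn1 encodes HRD1, the ubiquitin ligase at the centre of the main ERAD complex. It was at 44.6, 41.4, 42.9 and 45.3 CPM in control samples 1 to 4, at 53.4, 57.6, 50.6 and 58.6 CPM in A1 samples 1 to 4 and at 48.8, 50.7, 57.2 and 51.2 CPM in A1 + OVA samples 1 to 4. Control samples reached at most 45.3 CPM and treated samples at least 48.8 CPM. Its log2 fold change was 0.34 ± 0.06 with A1 and 0.26 ± 0.06 with A1 + OVA (edgeR adjusted p = 2.92e-05 and 0.000646). Herpud1, a membrane protein that organizes the HRD1 complex and is known as an ER stress-induced gene, was at 52.5, 49, 53.6 and 51.2 CPM in control samples 1 to 4, at 60.7, 60.3, 55.6 and 56 CPM in A1 samples 1 to 4 and at 57, 56.2, 58.4 and 56.7 CPM in A1 + OVA samples 1 to 4. The treated samples again lay above the controls, by smaller steps. It rose by 0.17 ± 0.05 and 0.15 ± 0.05 on the log2 scale (edgeR adjusted p = 0.00279 and 0.00956).

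Sel1l, the adaptor that stabilizes HRD1, did not pass. It was at 149.9, 153, 158 and 158 CPM in control samples 1 to 4, at 152, 154, 144 and 152 CPM in A1 samples 1 to 4 and at 159, 155, 151 and 163 CPM in A1 + OVA samples 1 to 4. The groups overlapped, and the 95% interval was -0.12 to 0.04 with A1 and -0.06 to 0.10 with A1 + OVA (edgeR adjusted p = 0.349 and 0.675). Sel1l and Syvn1 thus lay on different sides of the threshold, and the difference between genes was not tested.

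Both lectins that pass misfolded glycoproteins to the HRD1 complex fell with A1. Os9 was at 132, 134, 132 and 130.2 CPM in control samples 1 to 4, at 122, 121, 121 and 118 CPM in A1 samples 1 to 4 and at 121, 124, 133 and 134 CPM in A1 + OVA samples 1 to 4. The 4 A1 samples lay below all controls, whereas A1 + OVA samples 3 and 4 were within the range of the controls. With A1 it fell, with a log2 fold change of -0.13 ± 0.04 (edgeR adjusted p = 0.0052), and with A1 + OVA the value was -0.05 ± 0.04 (edgeR adjusted p = 0.322). Erlec1 was at 76.9, 81.6, 74.7 and 71.8 CPM in control samples 1 to 4, at 66.6, 68.2, 71.8 and 66.6 CPM in A1 samples 1 to 4 and at 69.9, 71.7, 63.2 and 68 CPM in A1 + OVA samples 1 to 4. A1 sample 3 equalled the lowest control, and the A1 + OVA samples lay just below the controls. The log2 fold change was -0.16 ± 0.05 with A1 and -0.16 ± 0.05 with A1 + OVA, and both passed (edgeR adjusted p = 0.00761 and 0.00715).

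The EDEM proteins trim mannose from glycoproteins and mark them for degradation. Edem2 was at 35.2, 31.7, 31.7 and 30.2 CPM in control samples 1 to 4, at 27.6, 29.1, 30.7 and 26.3 CPM in A1 samples 1 to 4 and at 32.3, 33, 28.9 and 34.9 CPM in A1 + OVA samples 1 to 4. A1 sample 3 overlapped with control sample 4, and the A1 + OVA samples spread over the control range, with sample 3 below it. It fell with A1, with a log2 fold change of -0.18 ± 0.07 (edgeR adjusted p = 0.0243), a call lost without control sample 1, A1 sample 1 or A1 sample 4 (edgeR adjusted p = 0.091, 0.0549 and 0.0803). With A1 + OVA it was 0.01 ± 0.07 (edgeR adjusted p = 0.952), and the difference between the treatments of 0.19 ± 0.07 did not pass (edgeR adjusted p = 0.0764), except without A1 + OVA sample 3 (edgeR adjusted p = 0.0302).

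Edem1 was at 139.6, 153, 138 and 141 CPM in control samples 1 to 4, at 136, 130.0, 138 and 144 CPM in A1 samples 1 to 4 and at 153, 157, 148 and 144 CPM in A1 + OVA samples 1 to 4. No group was separated from another. Its log2 fold change was -0.06 ± 0.04 with A1 and 0.08 ± 0.04 with A1 + OVA, and neither passed (edgeR adjusted p = 0.253 and 0.134), although the A1 + OVA value did without control sample 2 (edgeR adjusted p = 0.0289). The difference of 0.13 ± 0.04 between A1 + OVA and A1 passed narrowly (edgeR adjusted p = 0.045). It was lost with DESeq2 (adjusted p = 0.0658), with DESeq2 size factors, all genes of the table or the replicate block (edgeR adjusted p = 0.0544 to 0.0694), and when 1 of 8 samples was left out, namely control sample 3 or 4, A1 sample 1, 2 or 3, or A1 + OVA sample 1, 2 or 3 (edgeR adjusted p = 0.0527 to 0.135). Edem3 was at 147, 164, 158 and 160.1 CPM in control samples 1 to 4, at 149.5, 146, 154 and 154 CPM in A1 samples 1 to 4 and at 163, 157, 147 and 145 CPM in A1 + OVA samples 1 to 4. Its groups overlapped and its 95% intervals were -0.15 to 0.03 and -0.13 to 0.05 (edgeR adjusted p = 0.252 and 0.456).

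Derlins form part of the route by which proteins leave the ER. Derl1 was at 110.2, 98.5, 107 and 106 CPM in control samples 1 to 4, at 112, 100.1, 107 and 104 CPM in A1 samples 1 to 4 and at 114, 107, 109 and 106 CPM in A1 + OVA samples 1 to 4. Derl2 was at 56.8, 57.9, 62.7 and 54.8 CPM in control samples 1 to 4, at 57.6, 56, 59.5 and 55.9 CPM in A1 samples 1 to 4 and at 55.4, 55.9, 61.7 and 59.5 CPM in A1 + OVA samples 1 to 4. In both genes the groups overlapped. The 95% intervals of the log2 fold change were -0.08 to 0.10 with A1 and -0.04 to 0.14 with A1 + OVA for Derl1 (edgeR adjusted p = 0.891 and 0.369), and -0.12 to 0.09 and -0.10 to 0.11 for Derl2 (edgeR adjusted p = 0.758 and 0.956). Vcp encodes the ATPase p97, which pulls ubiquitinated proteins out of the membrane. Vcp was at 336, 347, 371 and 361 CPM in control samples 1 to 4, at 334, 349, 345 and 360.2 CPM in A1 samples 1 to 4 and at 339, 337, 331 and 335 CPM in A1 + OVA samples 1 to 4. The A1 + OVA samples lay at or just below the low end of the control range. The log2 fold change was -0.03 ± 0.04 with A1 and -0.08 ± 0.04 with A1 + OVA (edgeR adjusted p = 0.546 and 0.0874), and the latter passed without control sample 1 (edgeR adjusted p = 0.0263) and with upper-quartile scaling (edgeR adjusted p = 0.0249).

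Wfs1 encodes wolframin, an ER membrane protein linked to calcium balance and to ER stress signalling. It was at 24.3, 23.9, 25.9 and 23.7 CPM in control samples 1 to 4, at 31.5, 25.2, 30.2 and 31.7 CPM in A1 samples 1 to 4 and at 31.9, 33.9, 34.4 and 33.3 CPM in A1 + OVA samples 1 to 4. A1 sample 2 lay within the control range, and the A1 + OVA samples lay above all others. On the log2 scale the change was 0.28 ± 0.07 with A1 and 0.45 ± 0.07 with A1 + OVA (edgeR adjusted p = 0.00108 and 4.31e-06), while the difference between the treatments of 0.17 ± 0.07 did not pass (edgeR adjusted p = 0.0895).

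**Figure D5:**
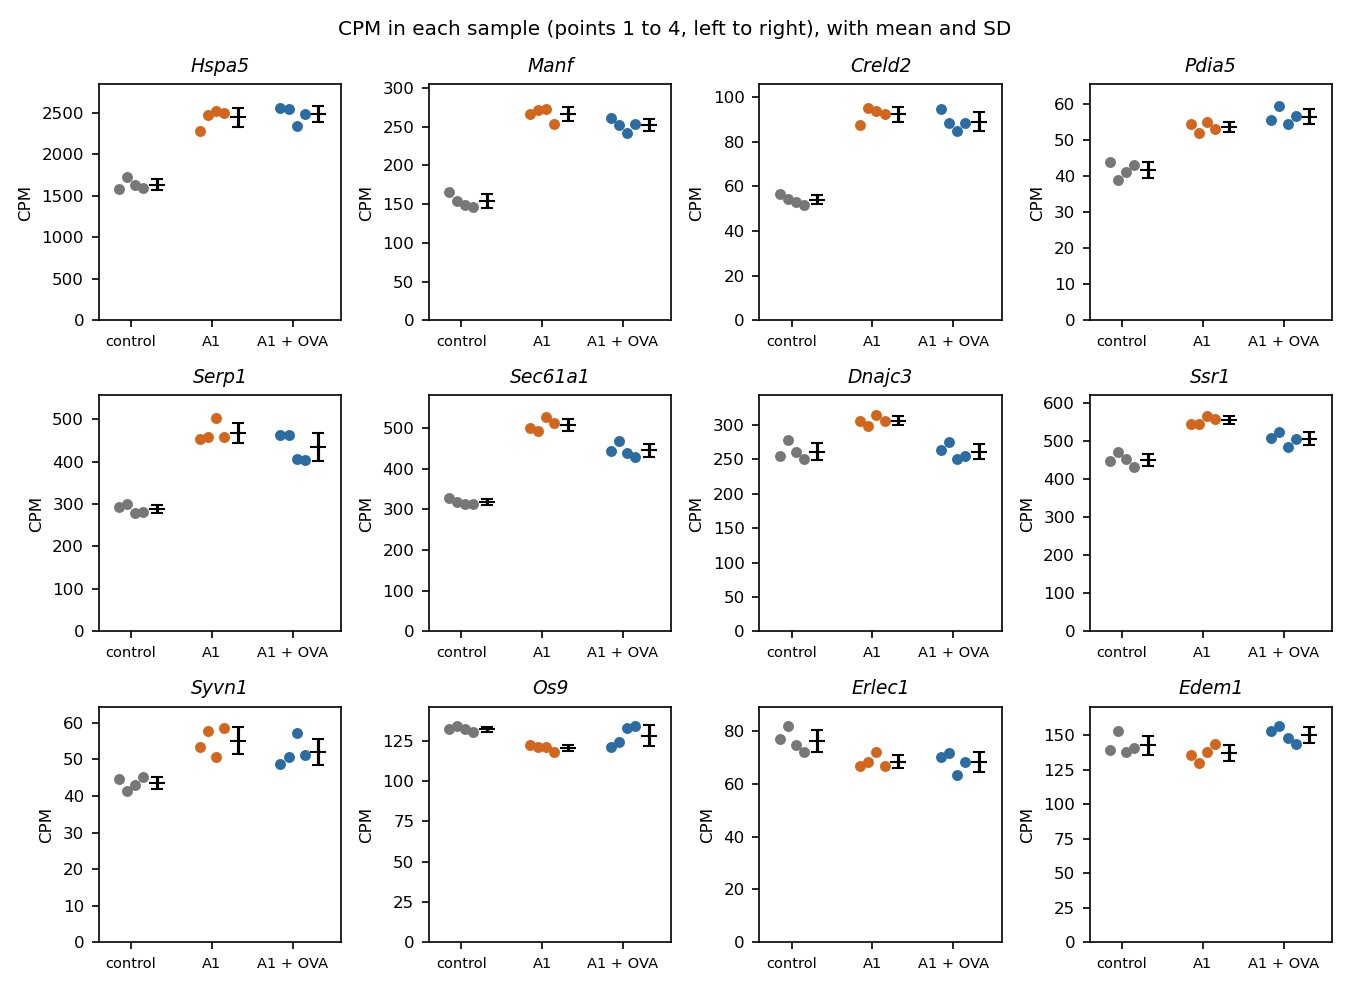
CPM of 12 members in each sample (points 1 to 4 from left to right in each group) with mean and SD of the 4 samples. Dnajc3 with A1 + OVA lies in the control range, Sec61a1 and Ssr1 with A1 + OVA lie between control and A1, and Edem1 overlaps in all groups.

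Few members differed between A1 + OVA and A1. Of the 37 tested, 1 was higher and 4 were lower in A1 + OVA than in A1 (background 6.05% higher and 6.81% lower), and 7 did not overlap between these groups (background 18.1%). The members called lower were Dnajc3, Sec61a1, Ssr1 and Dnajb11, from the folding and translocation classes, and each of these had risen with A1. Both comparisons use the same A1 samples, so that a rise with A1 and a lower call here are not independent. Edem1 was the member called higher. The median log2 difference of the members was -0.01, beside 0.01 over all tested genes. For Hspa5 and Hyou1 the 95% intervals of the difference were -0.07 to 0.11 and -0.08 to 0.08, for Manf -0.17 to 0.01 and for Creld2 -0.14 to 0.04.

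Read by promoter, 7 of the 8 tested members with an ERSE rose with A1 (median log2 fold change 0.27, background 31.7% higher and 31.1% lower), and Canx was the exception. With A1 + OVA 6 rose (background 29.7%), with a median of 0.23, since Dnajc3 did not pass either. Both members with an ERSE-II, Dnajb11 and Herpud1, rose with each treatment. Of the UPRE core members, Txndc11 rose with each treatment, Txndc5 with A1 and Vcp with neither. Of the 18 members with a window but none of the 3 motifs, 11 rose and 2 fell with A1, with a median of 0.14 and beside the same background. Among them Serp1, at 0.70, changed more than every ERSE member except Creld2. An ERSE was also held by 6 tested genes outside the list, of which 1 rose with A1, with a median of 0.02 (background 31.7%). The ERSE-II was held by 6 tested genes outside the list, of which 1 rose and 1 fell with A1, with a median of -0.05. For the UPRE core there were 89 such genes, of which 37 rose and 24 fell with A1, with a median of 0.06.

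The rest of the ER machinery was followed through 96 tested genes of a separate list, sorted into the same classes. With A1, 43 rose (44.8%), 16 fell (16.7%) and 37 did not pass, beside 31.7% higher and 31.1% lower over all tested genes, and the median log2 fold change was 0.10. As among the members, the share of increases was highest for translocation genes, with 23 of 33 higher and 1 lower and a median of 0.19. They included Spcs3, a subunit of the signal peptidase (0.84 ± 0.04, edgeR adjusted p = 4.52e-13), and Srprb, the membrane subunit of the signal recognition particle receptor (0.61 ± 0.05, edgeR adjusted p = 4.38e-10). Sec62, a translocon partner, was the gene called lower (-0.11, edgeR adjusted p = 0.0225).

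In the other classes of this list the shares of higher calls were near the 31.7% of all tested genes. Of the 19 folding genes 6 were higher (31.6%) and 3 lower (15.8%, background 31.1%). Mogs, which removes the outermost glucose of N-glycans, rose by 0.43 and Fkbp2, a prolyl isomerase, by 0.27, whereas Ganab, the catalytic subunit of glucosidase II, and Sdf2, a relative of Sdf2l1, fell, with log2 fold changes of -0.17 and -0.15. Disulfide genes gave 5 higher and 5 lower of 17, or 29.4% in each direction. The oxidases that recharge the isomerases rose, Ero1lb by 0.73 and Ero1l by 0.39, while Txndc15 and the peroxidase Gpx8 fell (-0.27 and -0.16). Degradation genes gave 9 higher (33.3%) and 7 lower (25.9%) of 27. Ube2g2, a ubiquitin-conjugating enzyme of ERAD, rose by 0.63 and its recruiter Aup1 by 0.49. Man1a, a mannosidase that trims N-glycans, fell with a log2 fold change of -1.43 and Ngly1, the cytosolic enzyme that strips glycans from retrotranslocated proteins, with -0.35. The edgeR adjusted p-values of the 12 genes named in this paragraph lay between 7.91e-17 and 0.0493.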

How the data were processed

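Per the labels, the authors isolated total RNA from the MSCs, selected polyA RNA and made strand-specific libraries. According to the submitters' processing notes and the study's methods, reads were demultiplexed with bcl2fastq (2.20), aligned to GRCm38 (Ensembl 102 annotation) with STAR (2.7) and counted per gene with featureCounts (2.0). The authors deposited raw counts of 55487 genes without normalization or filter. Strand-specific counting separates antisense genes, but reads shared by close copies may be lost.

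Symbols, coordinates and exon lengths came from GENCODE M21 (GRCm38), which holds 99.53% of the identifiers. Protein-coding genes that passed filterByExpr were tested in edgeR (4.0.16, R 4.3.3) after TMM scaling, in a quasi-likelihood fit of all 12 samples with group as the only term, and p-values were adjusted by Benjamini-Hochberg over the 11314 tested genes. CPM use TMM-normalized library sizes. The test was checked on simulated counts with log2 changes of 0.5 or 1 in a small part of the genes. There edgeR recovered 89.0% of the changes of 0.5 and 94.5% of those of 1, with 10 false calls over 11201 genes. Smaller changes, as most members showed, were not simulated. In the data 62.7% of the tested genes were called in either direction with A1, and the check does not cover changes in so large a part. Alternatives were DESeq2 (1.42.0, the authors' tool), upper-quartile and DESeq2 scaling, other filters, all genes, the compared groups alone, the replicate number as a block and leaving out each sample in turn.

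Promoter windows came from RefSeq (GRCm38.p6). No protein sequences were used here. Replicates of a group varied 1.91 to 6.80 times as much as counting error would give, so each was kept as a sample. With 4 samples per group, their number limits the precision.

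The members, the separate list of 98 matched ER genes (99 listed, Hm13 not matched) and the markers were chosen with earlier results of these data known. Values by sample are given for members among the 3 largest absolute log2 fold changes of their class with either treatment, those called lower with either treatment, those called between the treatments and those called in no comparison. From the separate list, up to 2 largest called increases and decreases per class with A1 are named.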

Additional observations from a re-analysis of the deposited data

Results flagged for a closer look

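In 6 of 114 groups of 4 samples (38 members in 3 groups), 1 sample stood apart from the other 3 by more than Dixon's 95% limit for the gap as a share of the whole range, which chance passes in about 1 of 20 groups. Among the A1-treated samples, Hsp90b1 was low in sample 1 at 2647.6 CPM, with the next at 2850.4 CPM, and Calr was high in sample 2 at 1958.9 CPM, with the next at 1864.4 CPM. Sample 3 of the same group was high for Pdia3, at 2029.1 CPM beside 1912.7 CPM, and for Serp1, at 503 CPM beside 457 CPM. In control sample 1, Txndc5 was high at 521 CPM beside 484 CPM and Sec61b at 48.3 CPM beside 40.7 CPM. The A1 calls of these 6 genes held without each of the 12 samples.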

How the results depend on the processing

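For the members, 2220 log2 fold changes were recomputed (20 alternatives in each comparison), and 2158 kept their side of the threshold. Values called in neither fit could change sign within these 2158, as for Canx with A1 (-0.03 to 0.04). Of the rest, 55 kept their direction but no longer passed and 7 kept it and newly passed. Among called values, 0 changed sign. The counts of calls kept within 1.5 times of the values given, apart from the following. With a log2 fold change of at least 0.5 asked for as well, 7 members were higher and 0 lower with A1, 6 higher and 0 lower with A1 + OVA, and 0 higher and 0 lower between the treatments. Upper-quartile normalization gave 2 members lower with A1 + OVA in place of 1, with Vcp newly passing (adjusted p = 0.0249), and ended the A1 + OVA calls of Calr, Pdia3 and P4hb (adjusted p = 0.085, 0.0664 and 0.102). These calls were also lost with all genes of the table (0.0525, 0.0514 and 0.073) and with the compared groups alone (0.0739, 0.0625 and 0.097), those of Calr and P4hb with no filter on low counts (0.061 and 0.072) and that of P4hb with DESeq2 size factors (0.0592). The Dnajb11 call between the treatments was lost with upper-quartile normalization (adjusted p = 0.0506) and with the compared groups alone (0.0543). Between A1 + OVA and A1, 0 members were higher with DESeq2, with DESeq2 size factors, with all genes of the table and with the replicate block, in place of 1, since Edem1 was lost. Leaving out each sample gave 2 to 3 members lower with A1, 20 to 24 higher and 1 to 2 lower with A1 + OVA (2 without control sample 1), and 0 to 1 higher and 2 to 4 lower between the treatments (2 without A1 sample 3, A1 + OVA sample 3 or A1 + OVA sample 4). No scaling moved the median of all genes by more than 0.1 on the log2 scale. Samples with the same replicate number did not deviate together (mean correlation 0.021, from -0.132 to 0.156 over 12 pairs, beside -0.007 over 36 pairs with other numbers), so that the numbers were not taken as pairs, and the fit with the replicate block called 25 members higher and 3 lower with A1, 23 and 1 with A1 + OVA, and 0 and 4 between the treatments. At this depth Derl3 could not be assessed.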
